A study of Mus musculus with 12 samples.

Results

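The proteasome is the cell's main machine for degrading ubiquitin-tagged proteins, and 44 genes for its subunits and regulators were followed in mouse macrophages responding to bacterial lipopolysaccharide (LPS). They are all symbols made of Psma, Psmb, Psmc, Psmd, Psme or Psmf and a number, taken from probe sets annotated to 1 symbol only. They stood among 19938 genes with a probe set of their own. Where a symbol had several probe sets, as 5 of the 44 did, the probe set that was brightest on average over the 12 arrays stood for it. The 44 comprised 8 alpha subunits and 7 constitutive beta subunits of the 20S core, the 3 immune beta subunits Psmb8, Psmb9 and Psmb10, the thymus subunit Psmb11, 6 ATPases (Psmc) and 14 non-ATPase genes (Psmd) of the 19S cap, 4 activators (Psme) and the inhibitor Psmf1.

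The macrophages were grown from bone marrow of C3H/HeN mice, for 17 days with IL-3, IL-6 and stem cell factor and with conditioned medium of L cells as the source of M-CSF. Nascent RNA was profiled at 0 min (unstimulated), 45 min and 270 min of LPS at 100 ng/ml, and total RNA of the same cultures at the same times. All cultures, unstimulated ones included, received 200 µM of the uridine analogue 4-thiouridine for the last 35 min, and the RNA that had taken it up was biotinylated and captured on streptavidin beads as the nascent fraction. Each of the 6 groups held 2 Affymetrix Mouse Gene ST 1.0 arrays, 1 from each of 2 independent experiments, which the labels number 1 and 2. The labels do not say how many mice gave marrow to an experiment.

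The 20S core is a barrel whose outer rings are alpha subunits and whose inner rings are beta subunits, of which Psmb5, Psmb6 and Psmb7 carry the proteolytic sites. Interferons and inflammatory signals are known to make cells produce Psmb8, Psmb9 and Psmb10, which take the places of Psmb5, Psmb6 and Psmb7 in newly built cores (the immunoproteasome), and Psme1 and Psme2, which form the PA28 activator that caps the core. Immunoproteasomes cut proteins into peptides suited to display on MHC class I, and in macrophages this links the response to microbes with antigen presentation.

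Psmb8 and Psmb9 lie in the MHC region of chromosome 17, interleaved with the peptide transporter genes Tap1 and Tap2, and Psme1 and Psme2 lie near each other on chromosome 14. All 5 immune genes rose by 270 min of LPS, and the promoter windows of those that held a marked motif are shown. The windows were taken from RefSeq (GRCm38.p6) and hold 250 bases before the annotated start and 30 from it, 5′ to 3′ on the gene's strand. Capitals mark the matched letters of a motif, a GAS element (TTCNNNGAA) in Psmb8, a CCAAT box on the opposite strand in Psmb9 and an interferon-stimulated response element (ISRE: GAAA, any 2 bases, GAAA) on the opposite strand in Psme1.
Psmb8, chr17:34197945-34198224, plus strand: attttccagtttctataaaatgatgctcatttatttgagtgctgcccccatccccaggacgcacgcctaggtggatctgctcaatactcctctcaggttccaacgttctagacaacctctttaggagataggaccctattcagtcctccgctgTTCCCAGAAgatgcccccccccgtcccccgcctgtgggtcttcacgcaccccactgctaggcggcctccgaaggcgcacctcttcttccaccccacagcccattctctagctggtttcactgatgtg
Psmb9, chr17:34187301-34187580, minus strand: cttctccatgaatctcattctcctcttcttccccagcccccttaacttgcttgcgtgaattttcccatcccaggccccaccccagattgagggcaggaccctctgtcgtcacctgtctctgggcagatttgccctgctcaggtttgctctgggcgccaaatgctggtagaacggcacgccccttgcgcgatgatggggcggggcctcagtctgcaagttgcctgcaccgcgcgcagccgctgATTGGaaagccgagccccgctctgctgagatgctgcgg
Psme1, chr14:55578244-55578523, plus strand: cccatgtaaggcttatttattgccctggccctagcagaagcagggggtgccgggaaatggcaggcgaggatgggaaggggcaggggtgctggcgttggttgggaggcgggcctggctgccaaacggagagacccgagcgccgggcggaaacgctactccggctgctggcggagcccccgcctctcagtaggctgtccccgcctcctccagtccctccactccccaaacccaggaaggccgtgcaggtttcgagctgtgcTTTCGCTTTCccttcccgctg

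Both strands of the full windows of 300 bases were searched, and 37 of the 44 genes had one. The ISRE letters were found in 4 of the 37 (Psmb3, Psmd4, Psmd9 and Psme1), against 3.44% of 32851 windows of all genes. The Psme1 match lay after the annotated start, at bases 10 to 19. The GAS letters were in 2 (Psmb8 and Psmd2), against 8.3% of all windows, and CCAAT in 14, against 37.41%. The antioxidant response letters TGACNNNGC were in 6, Psmb5 and Psmb6 among them, against 12.39%, and a kappa B consensus was in Psmd12 alone, against 4.51%. The windows of Psmb10 and Psme2 held none of these 5 motifs. The Psmb9 window overlapped that of Tap1 by 275 of its 300 bases, because the starts of these genes lie 226 bases apart on opposite strands. A match describes letters in a window and no binding was measured.

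The deposited values are RMA intensities per probe set, given here as log2. RMA scales arrays against each other, so each difference is relative to the rest of the array and is not an amount per cell. The deposited arrays still differed in spread, with interquartile ranges of 2.24 to 3.02 over all genes. Quantile scaling was run as an alternative. In bulk RNA, fewer cells of a type and less RNA per cell cannot be told apart. The 95th percentile of 1015 olfactory receptor genes, taken as a background level, lay between 6.19 and 6.82 on the 12 arrays, and 43 of the 44 genes were above it on every array. Psma8, a testis alpha subunit, was below it on all arrays, at 5.20 to 5.94, and Psmb11, known from thymic epithelium, was just above it at 6.40 to 7.04. Neither gene was called in any comparison. All 8 macrophage markers were above that level on all arrays, whereas none of the measured 6 neutrophil, 4 B cell, 5 mast cell and basophil, 4 dendritic cell or 2 erythroid markers was above it on all 12. On some arrays 2 of the neutrophil, 4 of the mast cell and basophil, 3 of the dendritic cell and 1 of the erythroid markers were above it, and the B cell markers were below it throughout. The log2 of the summed macrophage markers was 13.65 to 13.88 in nascent RNA at 270 min, against 14.55 to 14.63 in unstimulated cells, and 14.83 to 15.13 in total RNA at 270 min, against 15.16 to 15.36. Cd3e among 6 T and NK cell markers and Col1a1 and Col1a2 among 4 fibroblast markers were above it on all arrays. The log2 of the summed mast cell and basophil markers ranged from 8.81 to 10.32 in total RNA at 270 min and from 8.38 to 10.29 in unstimulated total RNA, so the 2 arrays of a time differed more than the times did. The part of these shifts in the results was not tested.

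Each comparison was fitted over all genes with limma. Genes with a Benjamini-Hochberg adjusted p (over 19938 genes) below 0.05 are referred to as called. Differences are log2 differences of group means with the standard error (SE) of the fit, n = 2 arrays a group. By 270 min of LPS, 10 of the 44 genes had risen and 2 had fallen in nascent RNA, where 8.87% of all genes were called higher and 14.2% lower. In total RNA 12 had risen and 0 had fallen, where 7.02% of all genes were called higher and 12% lower. The 3 immune beta subunits and both PA28 genes rose in both fractions, and so did the alpha subunits Psma2, Psma5 and Psma6 and the 19S assembly chaperone Psmd10, which makes 9 genes called higher in both, as were 5.43% of all genes. No constitutive beta subunit and no ATPase rose. The median difference of the 44 genes was 0.05 in nascent and 0.31 in total RNA, against 0.12 and 0.08 for all genes. At 45 min nascent RNA of Psmd10 had risen and that of 3 genes had fallen, where 3.05% of all genes were called higher and 5.88% lower. Total RNA of 0 genes was called at 45 min, where 0.662% of all genes were called higher and 0.0201% lower.

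**Figure D1:**
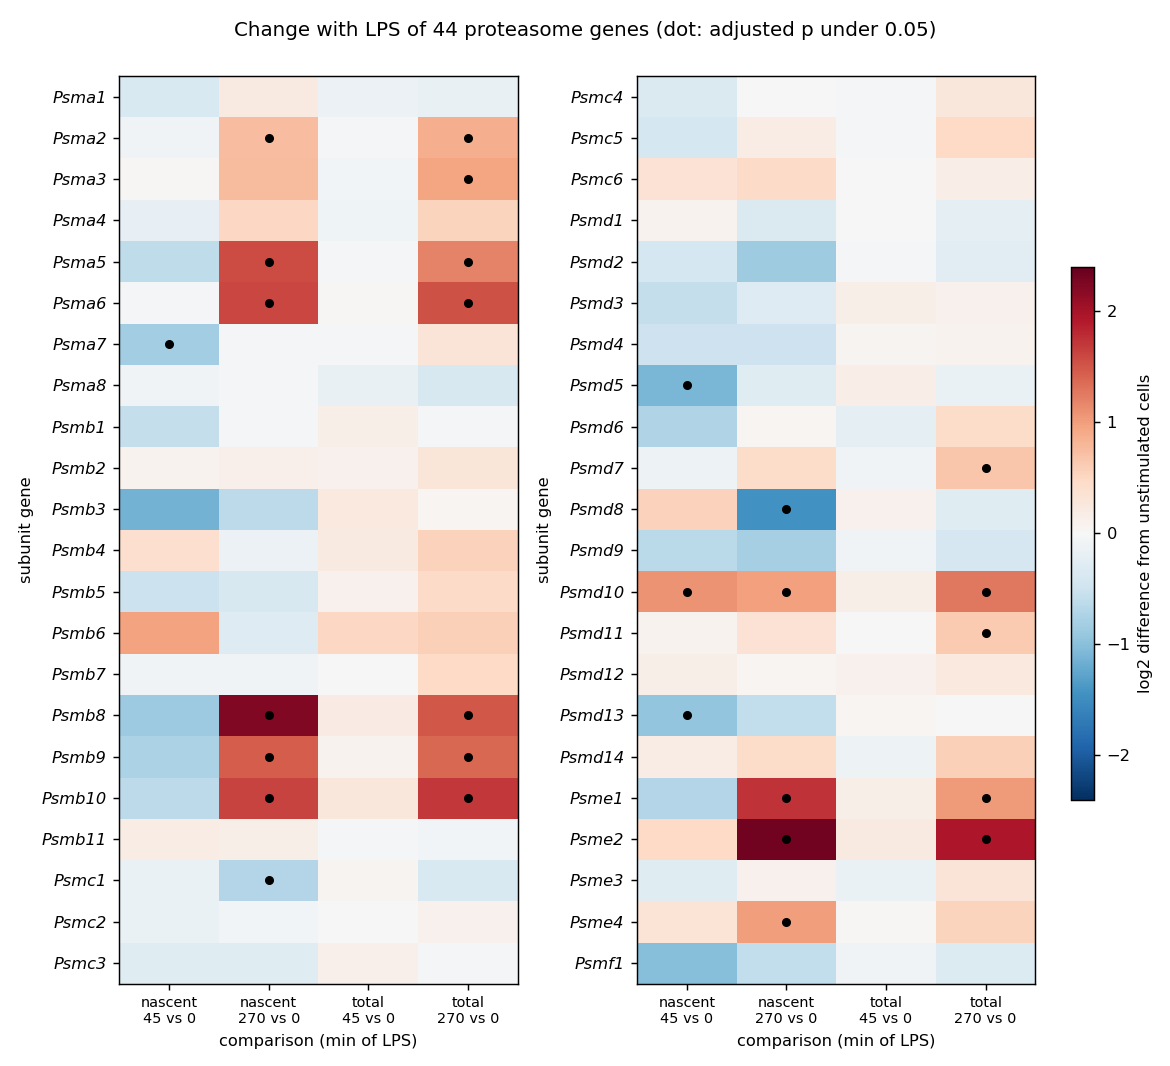
Log2 difference of each of the 44 genes between LPS and unstimulated cells (colour), in nascent and total RNA at 45 and 270 min; a dot marks an adjusted p below 0.05. The dots of both 270 min columns fall together on 9 genes, and the total RNA column at 45 min has none.

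The immune beta subunit Psmb8 replaces Psmb5, the chymotrypsin-like site. In nascent RNA Psmb8 had log2 intensities of 6.99 and 8.23 in unstimulated cells, 6.67 and 6.79 after 45 min and 9.77 and 9.89 after 270 min of LPS (experiments 1 and 2 in each pair). In total RNA it had 9.16 and 8.91, then 9.30 and 9.17, then 10.88 and 10.18. The 270 min arrays were highest in both fractions, with no overlap with the earlier times. The unstimulated arrays were the nascent pair that lay furthest apart. In nascent RNA Psmb8 was 2.22 ± 0.33 (SE) above unstimulated cells at 270 min (4.67-fold, adjusted p = 0.000224) and 3.10 ± 0.33 above the 45 min level (adjusted p = 1.4e-05). In total RNA it was 1.49 ± 0.33 above unstimulated cells (2.81-fold, adjusted p = 0.0056). That call was lost without the experiment 1 array at 270 min, where the adjusted p was 0.0502.

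Psmb9, the immune partner of the caspase-like site Psmb6, is the gene that shares its promoter window with Tap1. Its nascent values were 7.81 and 8.59 in unstimulated cells, 7.39 and 7.49 at 45 min and 9.75 and 9.57 at 270 min. Its total RNA values were 8.82 and 8.89, then 9.02 and 8.88, then 10.38 and 10.10. Total RNA at 45 min overlapped unstimulated cells, and both fractions were clear of them at 270 min. The rise at 270 min was 1.46 ± 0.24 in nascent RNA (2.75-fold, adjusted p = 0.000537) and 1.38 ± 0.24 in total RNA (2.60-fold, adjusted p = 0.00105). Both calls remained under every alternative run.

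Psmb10, which replaces the trypsin-like site Psmb7, was the least even of the 3 between experiments. Nascent RNA gave 7.54 and 8.64 in unstimulated cells, 7.31 and 7.62 at 45 min and 10.25 and 9.18 at 270 min. Total RNA gave 9.25 and 8.31, then 9.46 and 8.62, then 11.22 and 9.73. In total RNA experiment 1 was the higher at each time, by more than the change that either experiment showed by 45 min. Groups at 270 min and 0 min did not overlap in either fraction. The rise was 1.62 ± 0.51 in nascent RNA (adjusted p = 0.0356), made of 2.71 in experiment 1 and 0.54 in experiment 2. In total RNA it was 1.70 ± 0.51 (adjusted p = 0.0329), made of 1.97 and 1.42. The nascent call was lost without the experiment 1 array of either time, and the total RNA call without the experiment 1 array at 270 min or the experiment 2 array at 0 min; over all alternatives the adjusted p reached 0.252 in nascent and 0.222 in total RNA.

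The constitutive sites that these subunits replace were not called at 270 min in either fraction. Psmb5 had nascent values of 7.65 and 7.66 at 270 min, against 7.41 and 8.65 in unstimulated cells, a difference of -0.38 ± 0.36 (adjusted p = 0.451). Psmb6 had 10.48 and 10.18, against 10.36 and 10.93 (-0.31 ± 0.34, adjusted p = 0.513). Psmb7 had 9.78 and 9.99, against 9.80 and 10.14 (-0.08 ± 0.20, adjusted p = 0.786). All 3 overlapped their unstimulated values in nascent RNA. In total RNA the differences at 270 min were 0.46 ± 0.36 for Psmb5 (adjusted p = 0.425), 0.58 ± 0.34 for Psmb6 (0.285) and 0.48 ± 0.20 for Psmb7 (0.132). The change of each immune subunit minus that of its counterpart compares changes within an array and not levels. In nascent RNA at 270 min it was 2.60 ± 0.08 for Psmb8 minus Psmb5, 1.77 ± 0.06 for Psmb9 minus Psmb6 and 1.70 ± 1.45 for Psmb10 minus Psmb7 (SD, n = 2 experiments). In total RNA it was 1.03 ± 0.12, 0.80 ± 0.11 and 1.22 ± 0.43 in the same order. The immune subunit gained on its counterpart in both experiments in each of these 6 cases. In nascent RNA at 45 min it had lost on its counterpart in both experiments in all 3 pairs, with differences of -0.36 ± 0.20, -1.73 ± 0.10 and -0.54 ± 0.50 in the same order. No test was made of these differences.

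**Figure D2:**
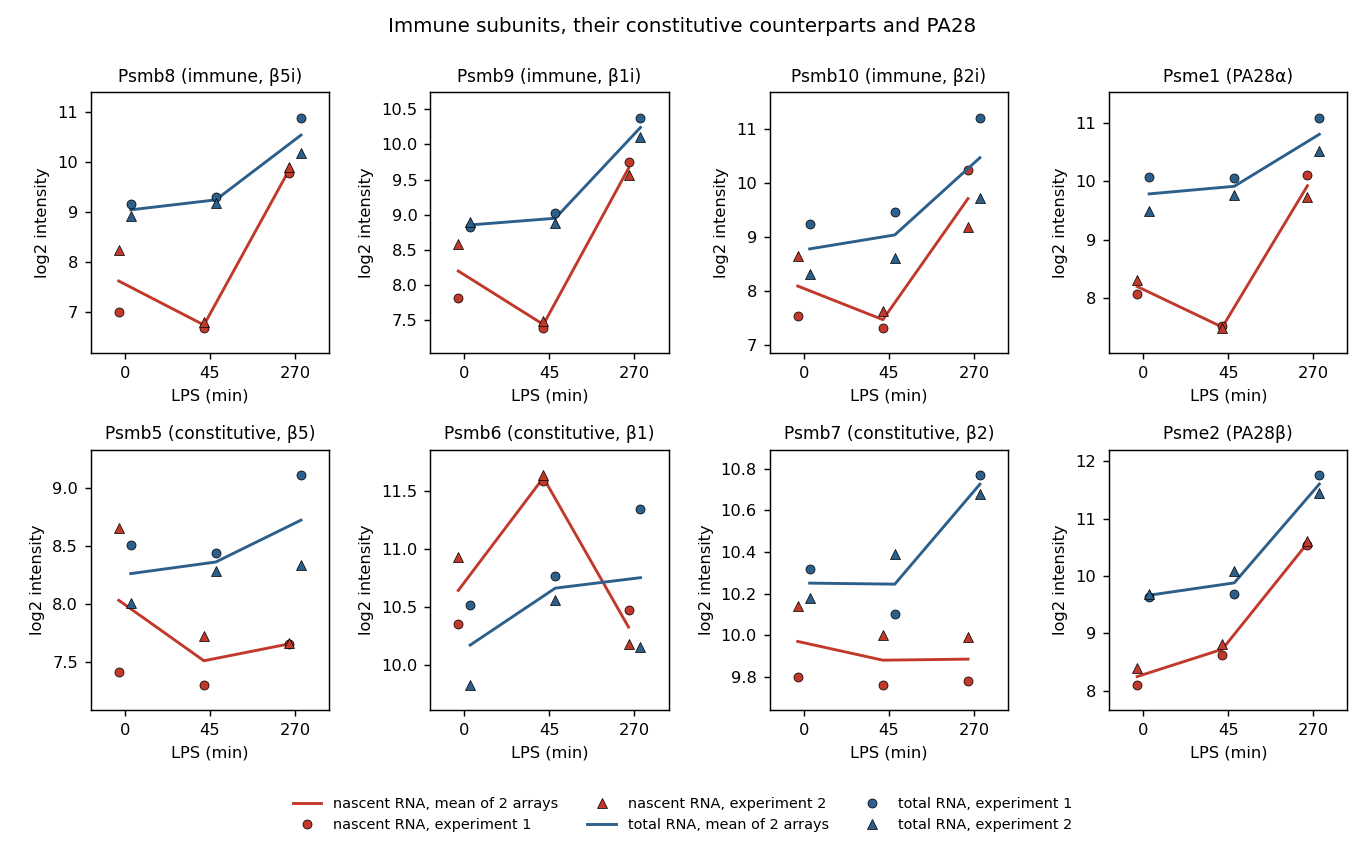
Log2 intensity (each vertical axis has its own range) of the immune beta subunits, their constitutive counterparts and the PA28 genes at 0, 45 and 270 min of LPS; points are single arrays and lines join means of 2 arrays, nascent RNA in red and total RNA in blue. The immune and PA28 genes end highest at 270 min in both fractions, whereas nascent Psmb6 peaks at 45 min and nascent Psmb5 and Psmb7 stay within their unstimulated range or just below it.

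Psme1 and Psme2 form the PA28 activator. Psme2, the beta chain, had nascent values of 8.10 and 8.40 in unstimulated cells, 8.63 and 8.82 at 45 min and 10.54 and 10.60 at 270 min. Its total RNA values were 9.64 and 9.69, then 9.68 and 10.08, then 11.76 and 11.44. Its rise at 270 min, 2.32 ± 0.21 in nascent RNA (4.99-fold, adjusted p = 2.51e-06) and 1.94 ± 0.21 in total RNA (3.83-fold, adjusted p = 1.86e-05), was the largest of the 44 genes in each fraction. A related gene, Psme2b, shares another probe set with Psme2, so signal of the pair could be mixed. Psme1, the alpha chain, had nascent values of 8.08 and 8.32, then 7.52 and 7.49, then 10.11 and 9.74. Its total RNA values were 10.07 and 9.50, then 10.06 and 9.77, then 11.09 and 10.52. Both Psme1 and Psme2 were clear of their unstimulated values at 270 min in both fractions. The Psme1 rise was 1.73 ± 0.26 in nascent RNA (3.31-fold, adjusted p = 0.000214) and 1.02 ± 0.26 in total RNA (2.03-fold, adjusted p = 0.012). The total RNA call was lost without the experiment 1 array at 270 min or the experiment 2 array at 0 min, with an adjusted p of up to 0.14.

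The other activators differed from the PA28 pair. Psme4, which encodes the nuclear activator PA200, had nascent values of 10.77 and 10.94 at 270 min, against 10.07 and 9.62 in unstimulated cells. This rise of 1.01 ± 0.20 (2.01-fold, adjusted p = 0.00217) was called in nascent RNA under every alternative. In total RNA Psme4 had 10.19 and 10.27 at 270 min, against 9.73 and 9.67, a difference of 0.53 that was not called (adjusted p = 0.0885, or 0.0492 with the experiment as a block). Psme3, the nuclear relative of the PA28 chains, was not called, at 0.11 ± 0.19 in nascent (adjusted p = 0.693) and 0.32 ± 0.19 in total RNA (adjusted p = 0.293). Psmf1, an inhibitor of the core, was not called at 270 min either, with 7.83 and 7.29 in nascent RNA, against 8.12 and 8.17 in unstimulated cells.

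Of the 8 alpha subunits, which form the outer rings and the gate of the core, 3 rose in nascent and 4 in total RNA at 270 min. The shares of all genes called higher were 8.87% in nascent and 7.02% in total RNA. Psma6 had nascent values of 10.64 and 11.18 at 270 min, against 8.89 and 9.73 in unstimulated cells, and total RNA values of 11.51 and 12.03, against 9.82 and 10.65. Psma5 had nascent values of 9.31 and 9.61, against 7.49 and 8.32, and total RNA values of 9.95 and 9.98, against 8.51 and 9.02. Neither gene overlapped between these times in either fraction, and experiment 2 was the higher of the pair in each group. Psma6 rose by 1.60 ± 0.38 in nascent RNA (3.03-fold, adjusted p = 0.00769) and by 1.53 ± 0.38 in total RNA (2.90-fold, adjusted p = 0.0114). Within experiments 1 and 2 its rise was 1.75 and 1.45 in nascent RNA and 1.69 and 1.38 in total RNA. Psma5 rose by 1.56 ± 0.31 (2.95-fold, adjusted p = 0.00206) and by 1.20 ± 0.31 (2.30-fold, adjusted p = 0.0139). Psma2 rose by 0.75 ± 0.21 in nascent (adjusted p = 0.0197) and 0.87 ± 0.21 in total RNA (adjusted p = 0.00953). Psma3 rose in total RNA by 0.94 ± 0.28 (adjusted p = 0.0321); its nascent difference was 0.76 ± 0.28 (adjusted p = 0.0721), or adjusted p = 0.0176 with the experiment as a block. With quantile scaling of the arrays the total RNA call for Psma3 was lost (adjusted p = 0.0958 within each fraction and 0.0949 over all arrays). Without the experiment 2 array at 270 min or the experiment 1 array at 0 min, the calls for Psma2 and Psma6 were lost in both fractions and those for Psma3 and Psma5 in total RNA, with adjusted p of up to 0.259. The fits with an array left out did not pair the experiments, so an offset between experiments entered their differences. The nascent call for Psma5 remained under every alternative.

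**Figure D3:**
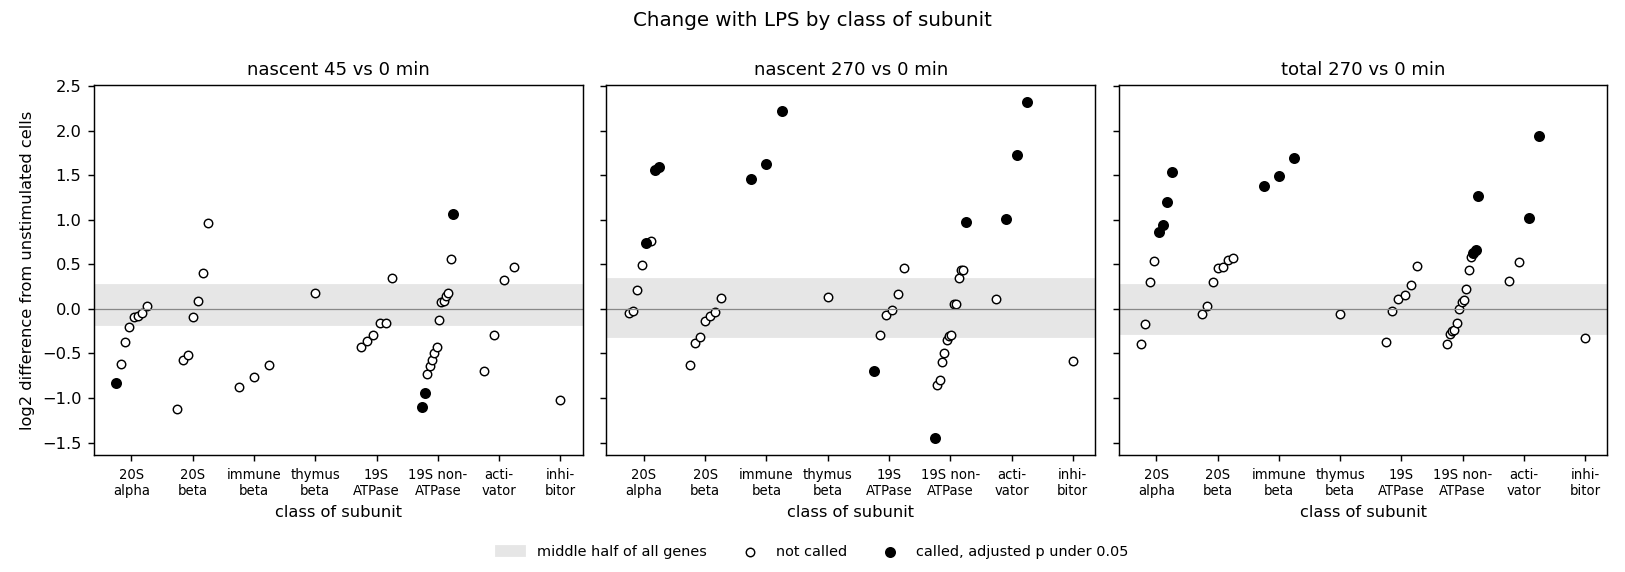
Log2 difference from unstimulated cells for each of the 44 genes, by class of subunit, in nascent RNA at 45 and 270 min and in total RNA at 270 min; filled points have an adjusted p below 0.05 and the grey band runs from the lower to the upper quartile of all genes. At 270 min the immune beta class lies above the band as a whole, from 1.46 to 2.22 in nascent and 1.38 to 1.70 in total RNA, while the constitutive beta class stays between -0.63 and 0.58.

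In the 19S cap, which binds and unfolds ubiquitin-tagged proteins, Psmd10 was the 1 gene already called higher at 45 min. Psmd10 (gankyrin) is a chaperone that helps assemble the ATPase ring and is not part of the finished particle. Its nascent values were 9.02 and 9.20 in unstimulated cells, 10.11 and 10.25 at 45 min and 10.10 and 10.08 at 270 min. Its total RNA values were 9.05 and 9.24, then 9.09 and 9.46, then 10.52 and 10.31. Nascent RNA was thus clear of the unstimulated arrays at both times and total RNA only at 270 min. The nascent rise was 1.07 ± 0.20 at 45 min (2.10-fold, adjusted p = 0.00466) and 0.98 ± 0.20 at 270 min (1.97-fold, adjusted p = 0.00262). In total RNA the gene was 1.27 ± 0.20 higher at 270 min (2.42-fold, adjusted p = 0.000443). The 270 min calls remained under every alternative, and the 45 min call was lost without the experiment 2 array at 45 min (adjusted p = 0.0598). The nascent change at 45 min exceeded the total RNA change by 0.94 ± 0.28, a difference that was not called (adjusted p = 0.113). The lid genes Psmd7 and Psmd11 rose in total RNA at 270 min, Psmd7 by 0.66 ± 0.20 (adjusted p = 0.0366) and Psmd11 by 0.63 ± 0.19 (adjusted p = 0.0302), but leaving out any 1 of the 4 arrays of the comparison ended either call (adjusted p up to 0.174 and 0.141).

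Psmd8, a lid subunit whose yeast relative enters last and completes the lid, moved in the other direction. Its nascent values were 10.59 and 10.80 in unstimulated cells, 11.41 and 11.10 at 45 min and 9.48 and 9.01 at 270 min. Its total RNA values were 11.02 and 11.02, then 11.13 and 11.11, then 10.97 and 10.50. The nascent arrays at 270 min were the lowest of the 12 for this gene. Nascent Psmd8 was -1.45 ± 0.22 from unstimulated cells at 270 min (0.365-fold, adjusted p = 0.000237) and -2.01 ± 0.22 from the 45 min level (0.248-fold, adjusted p = 1.6e-05), under every alternative. In total RNA the difference at 270 min was not called. The ATPase Psmc1 also fell in nascent RNA at 270 min, with 9.56 and 9.01, against 9.95 and 10.00 (-0.69 ± 0.22, adjusted p = 0.033). That call was lost with its second probe set (adjusted p = 0.0643) and without the experiment 2 array at 270 min or either unstimulated array. Blocking by experiment gave 5 genes instead of 2 as lower at 270 min in nascent RNA, the added ones being Psmd2 (-0.85, adjusted p = 0.0186), Psmd9 (-0.80, 0.0163) and Psmd13 (-0.59, 0.0296). The count lower was 4 without the unstimulated array of experiment 1, and 1 without that of experiment 2 or without the experiment 2 array at 270 min. The count higher at 270 min in total RNA was 7 without either 270 min array and 6 without the unstimulated array of experiment 1, against 12 with all arrays.

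**Figure D4:**
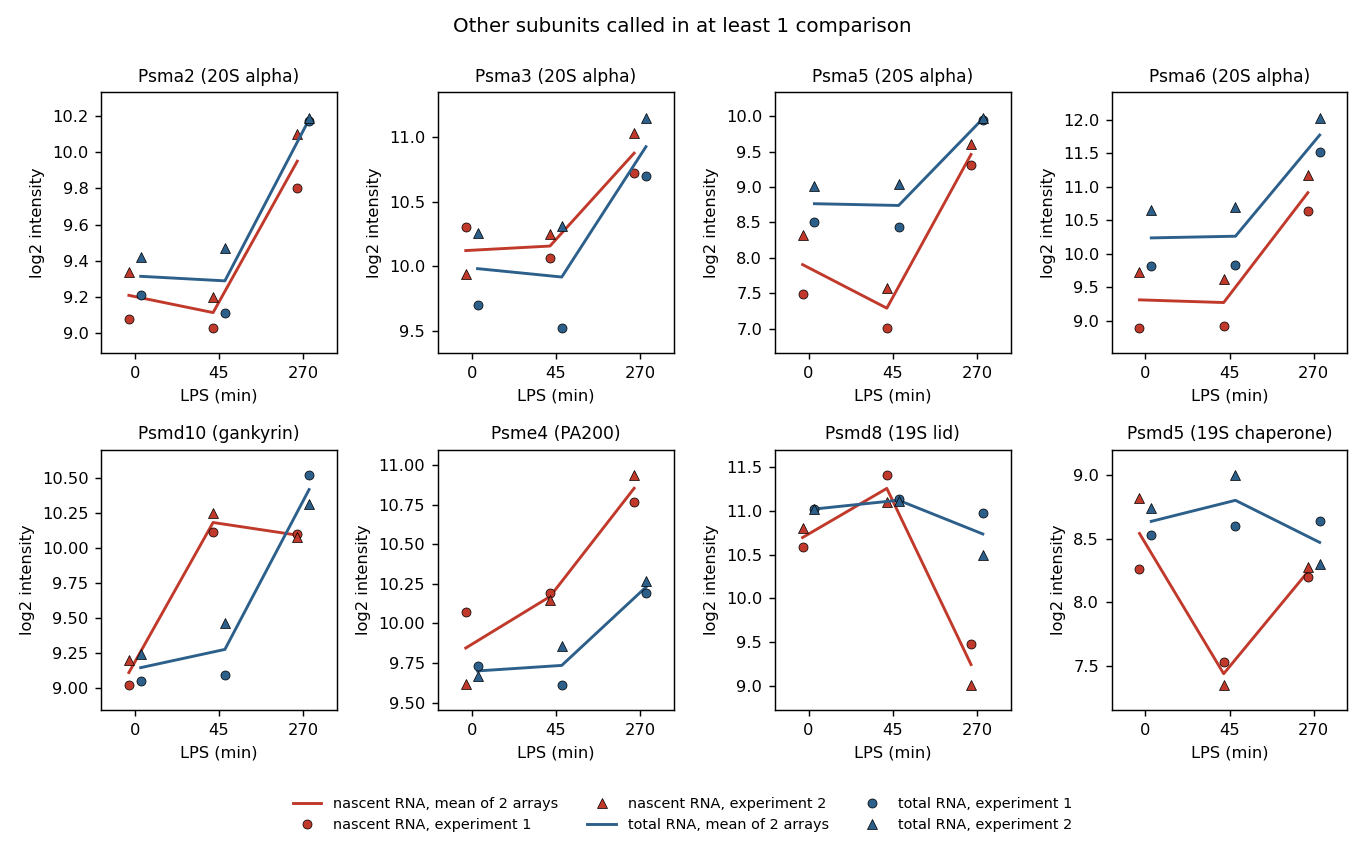
Log2 intensity (each vertical axis has its own range) of 8 further genes called in at least 1 comparison, at 0, 45 and 270 min of LPS; points are single arrays and lines join means of 2 arrays, nascent RNA in red and total RNA in blue. Nascent Psmd10 is already raised at 45 min, nascent Psmd5 dips at 45 min and nascent Psmd8 drops at 270 min while its total RNA stays between 10.50 and 11.13.

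At 45 min the nascent differences of the 44 genes had a median of -0.24, against 0.11 for all genes. Besides Psmd10, the called genes were Psmd5, Psmd13 and Psma7, all lower, where 3.05% of all genes were called higher and 5.88% lower. Psmd5, another chaperone of the ATPase ring, had 7.53 and 7.35 at 45 min, against 8.26 and 8.82 in unstimulated cells (-1.10 ± 0.24, 0.466-fold, adjusted p = 0.0101). Psmd13, a lid subunit, had 7.77 and 8.01, against 8.63 and 9.03 (-0.94 ± 0.21, adjusted p = 0.0124). Psma7 had 8.28 and 8.51, against 9.0 and 9.45 (-0.83 ± 0.24, adjusted p = 0.0426). None of these 3 overlapped between the times. Leaving out the experiment 2 array of either time ended the calls for Psmd5 and Psmd13, and the 45 min array of experiment 1 ended that for Psmd13 (adjusted p up to 0.13 for both). The Psma7 call was lost without either 45 min array or the unstimulated array of experiment 2 (adjusted p up to 0.345) and with either quantile scaling (0.062 and 0.07). By 270 min nascent Psmd5 and Psma7 were again higher than at 45 min, by 0.80 (adjusted p = 0.0305) and 0.78 (adjusted p = 0.0346), calls that no longer held without any 1 of the 4 arrays. In total RNA none of the 3 was called at 45 min.

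The immune subunits were not among the genes called at 45 min. Their nascent differences were -0.88 ± 0.33 for Psmb8 (adjusted p = 0.132), -0.76 ± 0.24 for Psmb9 (0.0728), -0.62 ± 0.51 for Psmb10 (0.485), -0.70 ± 0.26 for Psme1 (0.122) and 0.47 ± 0.21 for Psme2 (0.206). Nascent Psmb6 had 11.59 and 11.64 at 45 min, against 10.36 and 10.93 in unstimulated cells, without overlap (0.97 ± 0.34, adjusted p = 0.1). It was lower at 270 than at 45 min by a called difference of -1.28 ± 0.34 (adjusted p = 0.0167), which held only when the left-out array was that of experiment 1 at 270 min (adjusted p otherwise up to 0.136).

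The counts at 45 min in nascent RNA depended on single arrays, for all genes as well as for the 44. In unstimulated nascent RNA the experiment 2 array averaged 0.359 above that of experiment 1 over the 44 genes, and its interquartile range over all genes was 3.00, against 2.64 in experiment 1 and 2.24 to 2.50 on the 4 stimulated nascent arrays; the part of this in the result was not tested. Blocking by experiment gave 2 genes as higher and 8 as lower at 45 min, and added Psmb6 as higher (adjusted p = 0.0355) and Psmf1 (0.00438), Psmd6 (0.0177), Psmb3 (0.0269), Psmb9 (0.0376) and Psme1 (0.038) as lower. The count lower was 8 without the unstimulated array of experiment 1, 0 without that of experiment 2, 1 without the 45 min array of experiment 1 and 0 without that of experiment 2.

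In total RNA 0 of the 44 genes were called at 45 min by limma, and 0 had an unadjusted p below 0.05, against 3.05% of all genes at that unadjusted level. Among all genes 0.662% were called higher and 0.0201% lower. The differences of the 44 ranged from -0.22 to 0.49, with a median of 0.02. Between 45 and 270 min, total RNA of 11 genes rose (6.64% of all genes) and 0 fell (11.5%), and nascent RNA of 11 rose (6.74%) and 2 fell (10%), of which 7 rose in both fractions (4.1% of all genes). With the experiment as a block, nascent RNA of Psma1, Psma3, Psma4, Psmd6 and Psmd7 was also called higher in that interval and that of Psmc1 lower. In total RNA the block added Psmb10 (1.43, adjusted p = 0.0262, against 0.0733 without it), Psma4, Psmd6 and Psmd14 as higher. The largest nascent rise in that interval was that of Psmb8, at 3.10, followed by Psme1 at 2.42 ± 0.26 (5.35-fold, adjusted p = 1.27e-05), Psmb10 at 2.25 ± 0.51 (not called without the experiment 1 array of either time, adjusted p up to 0.0956), Psmb9 at 2.22 ± 0.24 and Psma5 at 2.18 ± 0.31. The nascent count higher was 5 without the 45 min array of experiment 1, 6 without the 270 min array of experiment 2 and 7 without that of experiment 1. The total RNA count was 3 without the 45 min array of experiment 1 and 7 without either 270 min array.

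**Figure D5:**
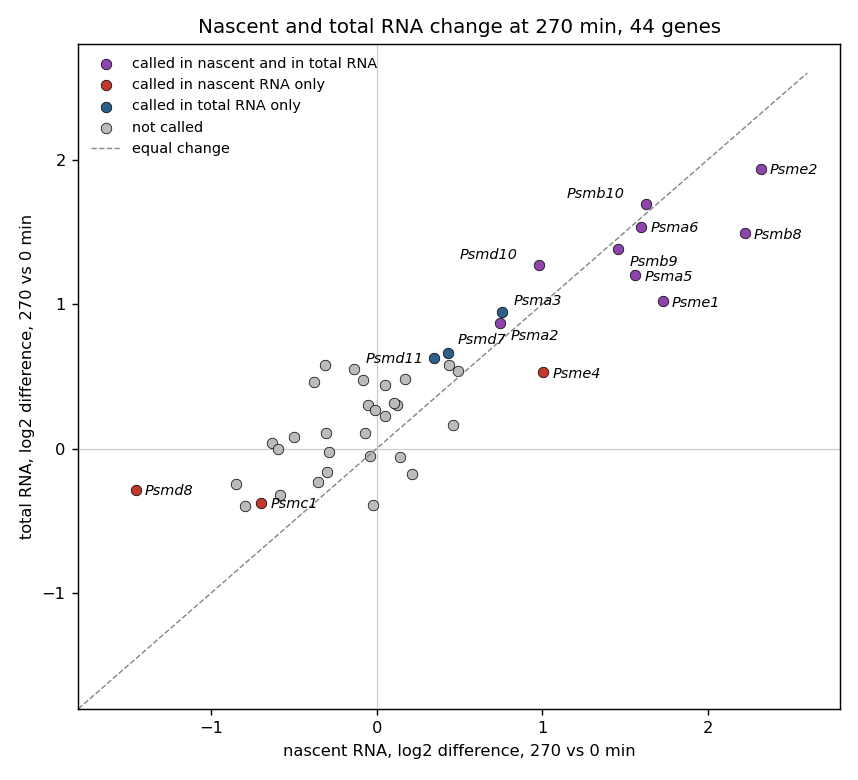
Log2 difference at 270 min of LPS from unstimulated cells in total RNA (vertical) against nascent RNA (horizontal) for the 44 genes; colours show in which fraction the adjusted p was below 0.05 and the dashed line marks equal change. Of the called genes, Psmb8, Psme1, Psme4, Psme2 and Psma5 lie furthest below the line. Psmd8, at -1.45 in nascent RNA, is far to the left of the other genes.

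Nascent RNA reports synthesis in the last minutes of culture and total RNA the pool, so the difference between their changes was tested on the nascent minus total values of each culture. Only Psmd8 was called at 270 min, where 0.12% of all genes were called with a larger nascent change and 0.722% with a smaller one. Its nascent change minus its total RNA change was -1.06 in experiment 1 and -1.28 in experiment 2 (-1.17 ± 0.25, adjusted p = 0.0227). This call was lost in the unpaired fit (adjusted p = 0.273), with quantile scaling within each fraction (0.0647) or over all arrays (0.0807), without an intensity trend in the variance prior (0.0515) and without either 270 min culture. At 45 min 0 genes were called by limma, where 0.476% and 0.567% of all genes were called higher and lower. At an unadjusted limma p below 0.05, 1 of the 44 was higher and 10 were lower, against 11.9% of all genes higher or lower. Without the unstimulated culture of experiment 1, 2 genes were called higher and 11 lower at 45 min, and 8 lower at 270 min. Without that of experiment 2, 1 was higher at 45 min, and 2 were higher and 1 lower at 270 min. For Psmb8 the nascent rise at 270 min exceeded the rise in total RNA by 0.73 and for Psme1 by 0.70; neither difference was called.

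In unstimulated cells 10 of the 44 genes were lower in nascent than in total RNA and 0 were higher, where 8.42% of all genes were called lower and 7.58% higher. The lowest was Psme1, with 8.08 and 8.32 in nascent, against 10.07 and 9.50 in total RNA (-1.59 ± 0.22, adjusted p = 4.06e-05). Psmb8 came next, with -2.17 in experiment 1 and -0.68 in experiment 2 (-1.43 ± 0.28, adjusted p = 0.00115). Psme2 had 8.10 and 8.40 in nascent, against 9.64 and 9.69 in total RNA (-1.41 ± 0.20, adjusted p = 4.42e-05). Psmb1, a structural beta subunit, was -1.06 ± 0.22 (adjusted p = 0.00175), and the ATPase Psmc4 was -1.05 ± 0.24 (adjusted p = 0.00443). Psma6 (-0.92), Psma5 (-0.86), Psmb2 (-0.79), Psmb9 (-0.66) and Psma1 (-0.65) made up the rest. Those 5 were lost in the unpaired fit, with adjusted p from 0.0561 to 0.261. The calls for Psmb8 and Psmc4 were lost without the culture of experiment 1 (adjusted p = 0.0678 and 0.174), and 17 genes were called lower without that of experiment 2.

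Other genes of the pathway were counted by list. Of all genes, 8.87% were called higher and 14.2% lower at 270 min in nascent RNA, and 7.02% and 12% in total RNA. Of 12 measured assembly factors and cofactors, 2 rose and 2 fell by 270 min in the nascent fraction, and 1 rose and 1 fell in total RNA. Pomp, the chaperone that matures the core, had nascent values of 9.60 and 9.68 at 270 min, against 8.50 and 8.84 in unstimulated cells (0.97 ± 0.21, adjusted p = 0.00383), and was not called in total RNA. Txnl1, a thioredoxin bound to the cap, rose by 1.28 in nascent RNA at 45 min (adjusted p = 0.00987) and by 1.07 in total RNA at 270 min (adjusted p = 0.013). In nascent RNA at 270 min the proteasome adaptor Ecpas rose by 0.66, whereas Akirin2, which brings proteasomes into the nucleus, and Zfand5, an activator of the particle, changed by -0.65 and -0.76.

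Of 6 measured genes for the transcription of proteasome genes, only Nfyb, a subunit of the CCAAT-binding factor, rose at 270 min, by 0.95 in nascent (adjusted p = 0.012) and 0.95 in total RNA (adjusted p = 0.0138). Nfe2l1, known to drive proteasome genes when the proteasome is impaired, was not called in any comparison. Of 6 measured ubiquitin supply and shuttling genes, only the ubiquitin-activating enzyme Uba6 rose at 270 min, by 0.91 in nascent (adjusted p = 0.00852) and 0.74 in total RNA (adjusted p = 0.0311). Among all genes 8.87% were called higher in nascent and 7.02% in total RNA at 270 min.

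The MHC class I list handles the peptides that immunoproteasomes make. Of its 10 measured members, 7 were higher and 1 lower at 270 min in the nascent fraction (8.87% and 14.2% of all genes). In total RNA 4 were higher and 0 lower (7.02% and 12% of all genes). Tap1, the neighbour of Psmb9, had nascent values of 7.0 and 7.95 in unstimulated cells, 7.14 and 7.42 at 45 min and 10.80 and 10.51 at 270 min. It was clear of its unstimulated values at 270 min and not at 45 min. At 270 min it was 3.18 ± 0.32 higher in nascent (9.06-fold, adjusted p = 5.5e-06) and 2.85 ± 0.32 higher in total RNA (7.20-fold, adjusted p = 2.14e-05). Tap2 rose by 1.92 in nascent and 1.88 in total RNA, Tapbpl by 1.32 and 1.37, and Tapbp by 1.54 in nascent RNA, with no call in total RNA. The list's median was 1.10 in nascent and 0.64 in total RNA. Of 6 measured interferon response factors, 4 rose in nascent and 6 in total RNA at 270 min (8.87% and 7.02% of all genes). Irf1, a known activator of Psmb9 and Tap1, was called higher already at 45 min, by 2.38 in nascent (adjusted p = 0.00027) and 3.02 in total RNA (adjusted p = 7.77e-05). Irf8 was called lower in nascent RNA at 45 min (-1.07, adjusted p = 0.0344). Psmb8, Psmb9, Psmb10, Psme1 and Psme2 were not called higher at 45 min in either fraction. A link between these factors and the immune subunits was not tested. With quantile scaling Psme2 alone of the 5 was called higher in nascent RNA at 45 min (adjusted p = 0.0405 within fractions and 0.0432 over all arrays). Irf7 and Stat2 rose by 3.39 and 2.49 in nascent RNA at 270 min.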

How the data were processed

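Nascent and total RNA of 6 macrophage cultures was measured on 12 arrays of 1 colour. The authors deposited RMA intensities of probe sets, not on a log scale as their range shows. The submitters' processing notes name RMA and Affymetrix Expression Console, without versions. Whether nascent and total arrays were normalised jointly is not stated there. RMA compresses the differences of dim genes and hides a shift shared by all genes. The number of arrays, 2 per group, limits the precision.

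Log2 was taken before any test. Of 35557 probe sets, 21789 carried a single symbol in the platform annotation, 1621 carried several and 12147 were not listed. The 21789 gave 19938 genes, of which 999 had more than 1 probe set, and the brightest was used. Dim genes were kept.

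Tests used limma 3.58.1 in R 4.3.3 with an intensity trend. Times were compared in a fit of 6 group means to 12 arrays (residual degrees of freedom 6, prior 7.38). The difference between nascent and total RNA was fitted to the 6 nascent minus total differences of the cultures (3 and 16.51). Tables and figures were made with Python 3.11.15, numpy 2.4.6, pandas 2.3.3 and matplotlib 3.10.9, and the fits were tested on simulated data. Alternatives were the experiment as a block (or an unpaired fit for the differences), quantile scaling within fractions or over all arrays, no trend, no dim genes, the second probe set of a symbol, and each array or culture left out. With 1 array left in a group, that array was assumed to vary like the other groups. Comparisons of times with an array left out did not pair the experiments, so an offset between experiments entered the difference.

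The experiment numbers pair the arrays because the labels give them to 2 independent experiments. Deviations from group means of arrays with the same number correlated at r = -0.295 to 0.645 over all genes, and the values below 0.1 all involved unstimulated nascent RNA. The p-values and SEs rest on the spread between these experiments, pooled over the groups and drawn towards that of other genes of like intensity. They do not measure the spread of a single gene in a single comparison. No 2 arrays were identical, and replicates correlated at r = 0.9806 to 0.9891.

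Values per array were given for the immune subunits, their counterparts, Psma8, Psmb11 and the called genes with the largest change in each comparison, up to 6 each way; Psmb1, Psmc4, Psme3, Psmf1 and other called genes were added after their values were seen. The genes, lists and markers were chosen with earlier results of these data known. The markers with no probe set of their own, and 12 pathway genes, were not analysed here.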

Additional observations from a re-analysis of the deposited data

Results flagged for a closer look

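The nascent change of Psmd8 at 270 min of LPS differed from its total RNA change by -1.17 in a test of the difference itself. That call was lost in the unpaired fit, with either quantile scaling and without the intensity trend, among other alternatives.

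Of 7 other probe sets of these genes, 4 lay above their unstimulated values at 270 min in both fractions and are given here. The share of all probe sets that did so was not counted, so the 4 have no baseline to be read against. In total RNA, the probe set shared by Psme2b and Psme2 was 1.70 higher at 270 min than in unstimulated cells, with 11.14 and 10.59, against 9.18 and 9.15. The other probe sets of Psma3 were 0.98 and 1.00 higher, with 10.58 and 10.98, against 9.52 and 10.08, and with 10.62 and 11.01, against 9.50 and 10.13. The second probe set of Psma5 was 0.95 higher, with 8.96 and 9.07, against 8.06 and 8.06. These 4 had not entered the comparisons and had no test of their own. The other 3, of Psmd2, Psmb3 and Psmc1, differed by -0.17, -0.03 and -0.33 in total RNA at 270 min.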

How the results depend on the processing

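Of 63 calls of the 44 genes over all comparisons, 23 held under every alternative and 52 under every alternative other than leaving out an array or culture. No call reversed direction. The number of all genes called also shifted with the array or culture left out.

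With the experiment as a replicate block, nascent RNA of 2 genes was higher and of 8 lower at 45 min, and of 5 lower at 270 min. The unpaired fit (no replicate block) called 0 genes lower for the difference between fractions at 270 min and 5 lower for nascent minus total RNA in unstimulated cells. Pairing moved no other count of these genes by over 1.5 times. Either quantile scaling gave 2 higher in nascent RNA at 45 min and 0 lower for the difference at 270 min. Without the intensity trend, 4 were lower in nascent RNA at 270 min, 1 lower for the difference at 45 min and 0 lower at 270 min. Without dim genes, 6 were lower in nascent RNA at 45 min, 5 at 270 min, and 1 for the difference at 45 min. Second probe sets left 1 lower in nascent RNA at 270 min. The cause of these shifts was not tested.

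In nascent RNA, leaving out 1 array gave 0 to 1 higher and 0 to 8 lower at 45 min, 7 to 10 and 1 to 4 at 270 min, and 5 to 8 and 1 to 2 between 45 and 270 min. In total RNA, leaving out 1 array gave 6 to 8 higher at 270 min and 3 to 10 between 45 and 270 min. Leaving out 1 culture gave 0 to 2 higher and 0 to 11 lower for the difference at 45 min, 0 to 2 and 0 to 8 at 270 min, and 0 to 1 higher and 7 to 17 lower for nascent minus total RNA.

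With 1 array or culture left out, differences were followed by gene for called genes and, in chosen comparisons, for the immune subunits, Psmb5, Psmb6 and Psmb7. Among these, values that were not called changed sign in 12 cases. They were nascent Psmb5 and Psmb7 at 45 min (ranges -1.14 to 0.10 and -0.26 to 0.085) and at 270 min (-1.0 to 0.24 and -0.25 to 0.09). The others were total RNA Psmb10 and Psme1 at 45 min (-0.20 to 0.73 and -0.16 to 0.42), total RNA Psmb6 at 270 min (-0.02 to 1.17) and nascent minus total Psmb10 (-1.71 to 0.34). Other genes that were not called were not followed in this way.

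No change of the dim genes Psma8 and Psmb11 was detectable at this signal over background.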
